A study of Mus musculus with 4 samples.

Results

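The genes described here are the metallothioneins Mt1 and Mt2 and 3 genes of the zinc response, Mtf1, Slc30a1 and Slc39a10, taken by gene symbol as 5 of the 53465 genes in the count table. MDSCs are immature cells of the myeloid lineage that build up in hosts with tumors. They were taken by magnetic beads against Gr-1 from the spleens of male BALB/c mice bearing the 4T1 mammary carcinoma. The mice were 6 weeks old when 4T1 cells were injected. The sample labels place the sacrifice on day 21 after the injection of 4T1 cells, and the study's methods give an earlier day. The cells were kept for 6 h in control medium (control group, 2 libraries) or with EGCG, a green tea catechin, at 5 μg/mL (EGCG treatment group, 2 libraries), and RNA was sequenced. All 4 libraries thus came from tumor-bearing mice and from sorted cells in culture, with no library from healthy mice. The sources used here do not state whether replicates were cells of separate mice, so the p values measure only the spread between these libraries.

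Metallothioneins are small, cysteine-rich proteins that bind zinc and copper ions in the cytosol. When free zinc rises in a cell, the zinc finger transcription factor MTF1 binds metal response elements in DNA and activates Mt1, Mt2 and Slc30a1, the last of which encodes the zinc exporter ZnT1 of the plasma membrane. MTF1 also represses Slc39a10, which encodes the zinc importer ZIP10, so that a cell loaded with zinc typically shows high metallothionein and ZnT1 transcripts and low ZIP10 transcripts. EGCG binds zinc and has been described as a carrier of zinc across membranes, which makes these transcripts a readout of interest in cells given EGCG.

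The sequences before the annotated starts of Mt1, Mt2 and Slc30a1 are shown because these are the genes through which zinc is classically read. They come from RefSeq (GRCm38.p6), on the plus strand, 5′ to 3′, and all 5 genes had a promoter entry there. The printed stretches lie at chr8:94178839-94179081 (Mt1), chr8:94172368-94172617 (Mt2) and chr1:191906531-191906766 (Slc30a1). They hold 243, 250 and 236 bases. The RefSeq starts are 94179089 (Mt1), 94172618 (Mt2) and 191906781 (Slc30a1). For Mt1 and Slc30a1 the printed stretch thus ends short of the 250 bases that were searched. Capitals mark the core of the metal response element, written as TGCACNC or TGCGCNC and searched on both strands; no marked sites overlap.
Mt1: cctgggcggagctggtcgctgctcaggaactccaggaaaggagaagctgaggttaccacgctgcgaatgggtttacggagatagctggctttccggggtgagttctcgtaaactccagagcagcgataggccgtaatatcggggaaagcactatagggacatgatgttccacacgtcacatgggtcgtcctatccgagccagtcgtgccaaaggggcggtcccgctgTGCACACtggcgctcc
Mt2: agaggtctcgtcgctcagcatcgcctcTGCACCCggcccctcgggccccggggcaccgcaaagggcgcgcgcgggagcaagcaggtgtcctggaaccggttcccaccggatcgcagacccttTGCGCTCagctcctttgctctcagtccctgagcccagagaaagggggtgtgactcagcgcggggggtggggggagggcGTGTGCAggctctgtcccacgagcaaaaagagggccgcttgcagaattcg
Slc30a1: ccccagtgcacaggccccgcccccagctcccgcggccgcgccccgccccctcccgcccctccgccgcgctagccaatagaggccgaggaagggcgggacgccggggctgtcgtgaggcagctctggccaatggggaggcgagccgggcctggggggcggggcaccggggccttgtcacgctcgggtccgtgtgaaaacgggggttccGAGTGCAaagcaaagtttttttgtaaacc
In the 250 bases before the RefSeq start, the core occurred 3 times for Mt2, 1 time for Mt1 and 1 time for Slc30a1, and 0 times for Mtf1 and for both listed starts of Slc39a10. Of the 32851 promoters of the table, 21.4% held at least 1 core in such a window and 1.26% held at least 3. Further cores lay within the 50 bases after the start, namely TGCACTC and TGCGCTC for Mt1, GTGCGCA for Mt2 and GAGCGCA for Slc30a1, the last pair being the core as read on the other strand. Over the full 300 bases, Mt2 had 4 cores, Mt1 had 3 and Slc30a1 had 2, and at least as many were found in 0.517%, 1.97% and 7.11% of all such windows. The 3 cores of Mt1 lay between 23 bases before and 26 bases after its RefSeq start, near the downstream end of the window. Sequence more than 50 bases after a start was not searched, so these counts depend on the annotated start and do not rank the genes by their cores. A match of these letters is a description of the sequence and does not show that MTF1 was bound there.

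The libraries held from 17767318 to 18390385 counts on genes. Genes with too few reads were removed, library sizes were scaled by TMM (trimmed mean of M values), and the groups were compared with edgeR (quasi-likelihood test), with p values adjusted by Benjamini-Hochberg over all 14682 genes that remained. Levels are given as CPM, a gene's count relative to the scaled total of its library. A gene is called when its adjusted p is under 0.05, which was so for 22 genes (0.15% of those tested). The summed level of 11 neutrophil markers was 62125 and 73637 CPM under control conditions and 82596 and 73388 CPM with EGCG. That of 8 macrophage markers was 394 and 390 CPM in control and 306 and 326 CPM with EGCG, with all 8 genes lower but 0 called by edgeR. None of the listed markers of any of 12 cell types was at 0 in every library, but some types were near the floor. The 6 fibroblast markers summed to 1.21 to 3.61 CPM (1 tested) and the 4 NK cell markers to 6.08 to 7.11 CPM (2 tested). The 6 B cell markers together reached 1753 to 2004 CPM. In such bulk samples, fewer cells of a type and less RNA per cell cannot be told apart.

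Mt1 was not higher in either EGCG library than in the control libraries, Mt2 had no counts at all, and neither the sensor Mtf1 nor the exporter Slc30a1 differed between the groups by more than the spread of the replicates. Slc39a10 was the only member with an unadjusted p under 0.05. It was lower in both EGCG libraries, but it did not pass the adjusted threshold. Of the 4 members with enough counts to be tested, edgeR called 0, where 0.0136% of all tested genes were called higher and 0.136% lower. At an unadjusted p under 0.05, 1 of the 4 was lower and 0 were higher by edgeR, against 7.02% and 5.22% of all tested genes (12.2% in either direction). DESeq2 gave an unadjusted p under 0.05 for 0 of the 4 and called neither Mtf1 nor Slc30a1, and it gave no adjusted p for Mt1 and Slc39a10. A gene without an adjusted p could not be called, so DESeq2's calls in any gene list cover only genes that had one. For Mt1 and Slc39a10 both EGCG libraries lay below both control libraries, a separation seen in this direction for 21.2% of all tested genes, in the other for 21.5%, and in either for 42.7%. With 2 libraries against 2, an exact permutation test cannot give a two-sided p under 0.333.

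**Figure D1:**
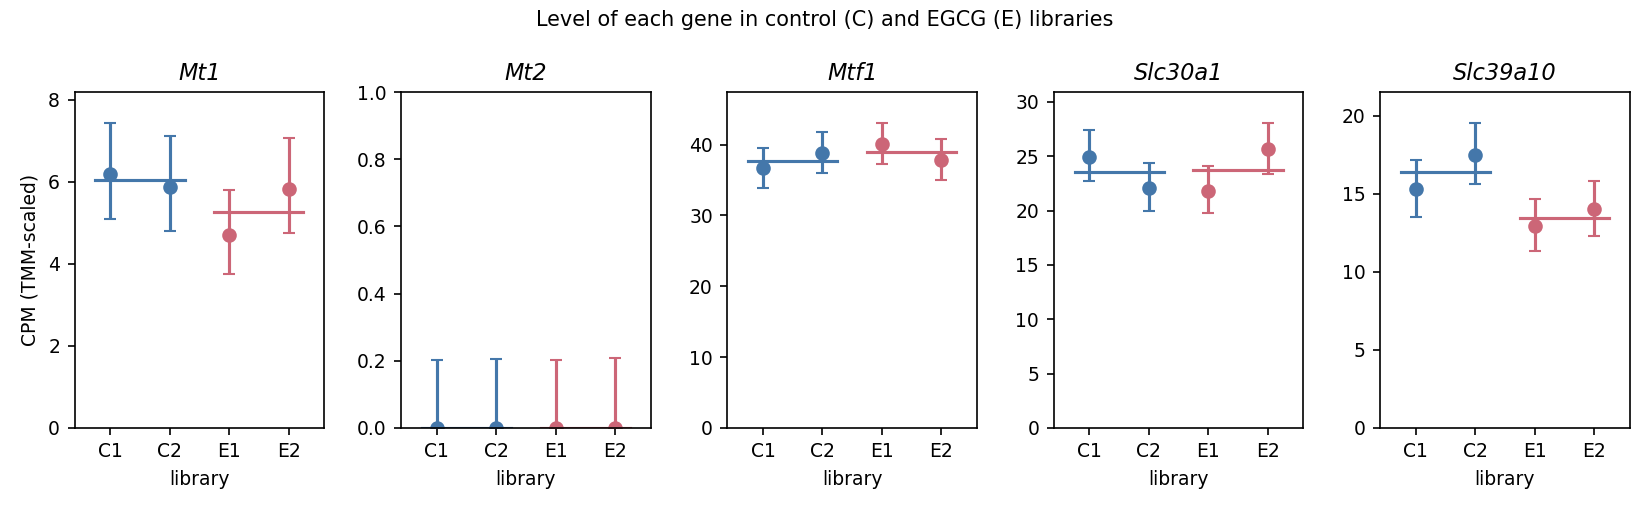
Level of each gene in CPM (linear axes from 0, a scale of its own for each gene) in control replicates 1 and 2 (C1, C2, blue) and EGCG replicates 1 and 2 (E1, E2, red); points are libraries, bars are exact 95% Poisson intervals of the count, which cover counting error only, and horizontal lines are group means. Mt2 is at 0 in every library, Slc39a10 is lower in both EGCG libraries, Mt1 is lowest in EGCG replicate 1, and the groups overlap for Mtf1 and Slc30a1.

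Mt1 (ENSMUSG00000031765) encodes the ubiquitous metallothionein 1, and its gene model spans positions 94179082 to 94180327 of chromosome 8 (GRCm38). The control libraries held 113 and 105 counts and the EGCG libraries 85 and 104 counts of Mt1, or 6.19, 5.88, 4.69 and 5.82 CPM. The groups were thus separated only by the narrow gap between control replicate 2 and EGCG replicate 2, and EGCG replicate 1 was the library that stood lowest. The mean level of Mt1 was 6.03 ± 0.221 CPM (SD, n = 2) for control and 5.26 ± 0.802 CPM (SD, n = 2) for EGCG. The log2 fold change of Mt1 was -0.20 (standard error 0.19), and edgeR gave an adjusted p of 0.720. Its 95% interval ran from -0.60 to 0.20 on the log2 scale, that is from 0.658 to 1.15 times the control level, so that a rise beyond 1.15-fold lay outside the interval. Without EGCG replicate 1 the log2 fold change was -0.05, and without EGCG replicate 2 it was -0.36. Whenever a library is left out, its group has 1 library, which is assumed to vary like the other group, and such fits called 5 to 119 genes higher and 72 to 235 lower. At this depth the exact 95% Poisson interval of a library's count was wide, from 67.9 to 105 for the 85 counts of EGCG replicate 1 and from 93.1 to 136 for the 113 counts of control replicate 1. The standard error of Mt1 was close to the median of 0.192 among the 1619 tested genes within 0.5 log2 units of its mean CPM.

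Mt2 (ENSMUSG00000031762), the gene of metallothionein 2, was listed at 0 counts in every control and every EGCG library. Mt2 lies 5513 bases from Mt1 on the same strand, on chromosome 8 from 94172664 to 94173568. The antisense gene Gm45774, annotated on the other strand from 94170748 to 94173412, covers 432 of the 588 exonic bases of Mt2 (73.5%) and leaves 156 bases free. Gm45774 was also listed at 0 counts in all 4 libraries, although most of its 2665 exonic bases lie outside Mt2. The counting ignored strand, and in featureCounts' usual setting a read that overlaps exons of both genes is assigned to neither; the setting used is not given in the sources used here. Of the 347 protein-coding genes with at least as large an overlapped share as Mt2, 213 (61.4%) were at 0 counts in every library, against 29.8% of the 15623 protein-coding genes with no overlap. Sco2, which encodes a copper chaperone of cytochrome c oxidase, is overlapped over 91.8% of its exonic bases and was at 0 as well, whereas the zinc transporter gene Slc39a7, overlapped over 80.7%, had 75 to 121 counts per library. Sco2 and Slc39a7 were chosen for this comparison after their values were seen. The level of Mt2 therefore cannot be read from these counts. Taking a floor of 3 counts, a count of 0 allows up to 0.164 to 0.168 CPM in a library (the two-sided 95% Poisson limit in the plot of levels is 3.69 counts), and this bound holds only for reads that could be assigned to Mt2. The remaining metallothionein genes of the cluster, Mt3 and Mt4, had 0 counts in every library with no overlapping gene; they are known as genes of the brain and of stratified epithelia.

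**Figure D2:**
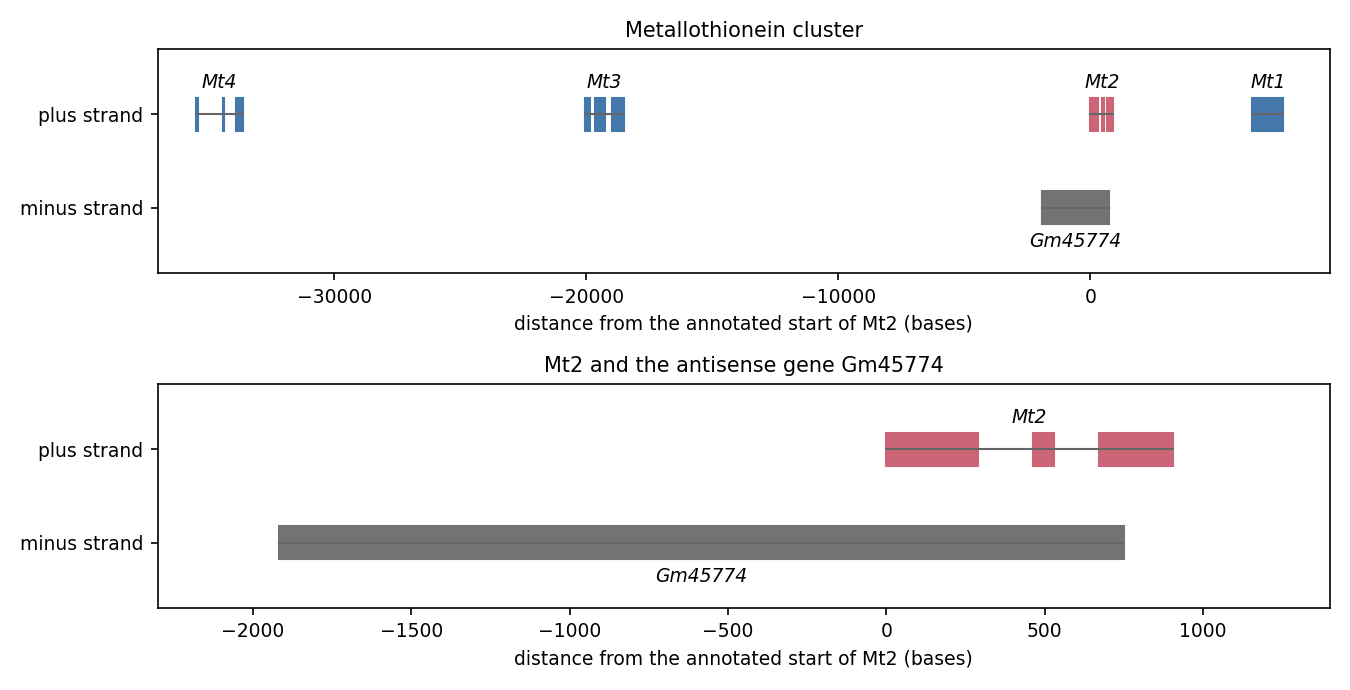
Exons (boxes) of the metallothionein cluster by distance in bases from the annotated start of Mt2, with genes of the plus strand above and of the minus strand below; the lower panel enlarges Mt2. The single exon of Gm45774 runs from -1916 to 748 bases on this axis, and only the last 156 exonic bases of Mt2 lie outside it.

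Mtf1 (ENSMUSG00000028890), the metal-sensing transcription factor itself, lies on chromosome 4 from 124802104 to 124849800. Control libraries had 36.6 and 38.8 CPM of Mtf1, and EGCG libraries 40.1 and 37.8 CPM. The groups overlapped, and the spread within a group was as large as the difference between the groups. The group means were 37.7 ± 1.55 CPM (SD, n = 2) for control and 39.0 ± 1.59 CPM (SD, n = 2) for EGCG, for a log2 fold change of 0.05 (standard error 0.09; adjusted p of 0.885 by edgeR). The 95% interval for Mtf1 ran from 0.901 to 1.18 times the control level. With a correction for the trend of fold changes with gene length, the log2 fold change of Mtf1 was 0.13 (adjusted p of 0.693 by edgeR).

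Slc30a1 (ENSMUSG00000037434), on chromosome 1 from 191906767 to 191913247, encodes ZnT1, the exporter that MTF1 switches on when zinc is high. Slc30a1 was at 24.97 and 22.1 CPM under control conditions and at 21.8 and 25.6 CPM with EGCG. The lowest and the highest library both belonged to the EGCG treatment group, and the control libraries lay between them. The means were 23.5 ± 2.03 CPM (SD, n = 2) and 23.7 ± 2.69 CPM (SD, n = 2), for a log2 fold change of 0.01 (standard error 0.11; adjusted p of 0.980 by edgeR). The 95% interval ran from 0.850 to 1.20 times the control level. The sign depended on the libraries used, and leaving out a library gave log2 fold changes of -0.07 (control replicate 2), -0.11 (EGCG replicate 2), 0.11 (control replicate 1) or 0.13 (EGCG replicate 1). Part of Slc30a1 (8.92% of its exonic bases) and of Mtf1 (8.09%) is overlapped by a gene on the other strand, so a small part of their reads could have been lost.

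Slc39a10 (ENSMUSG00000025986), on the minus strand of chromosome 1 from 46807544 to 46892852, encodes the importer ZIP10, which MTF1 represses. Slc39a10 had 279 and 313 counts under control conditions and 234 and 250 counts with EGCG, or 15.3, 17.5, 12.9 and 14.0 CPM. Both EGCG libraries lay below both control libraries. Mean levels were 16.4 ± 1.58 CPM (SD, n = 2) and 13.5 ± 0.772 CPM (SD, n = 2), giving a log2 fold change of -0.29 (standard error 0.13). The unadjusted p was 0.0402 and the adjusted p 0.389 by edgeR, and the adjusted p ran from 0.289 to 0.765 over the alternatives for which one was given. The 95% interval ran from 0.680 to 0.990 times the control level. The log2 fold change of Slc39a10 was -0.18 with control replicate 2 left out and -0.38 with control replicate 1 left out. The unadjusted p was 0.0640 with the length correction, 0.0516 without a filter, 0.117 by DESeq2, 0.271 without control replicate 2 and 0.165 without EGCG replicate 1 (edgeR where not named otherwise). The macrophage markers moved in the same direction (306 and 326 CPM with EGCG against 394 and 390 CPM). The B cell markers moved in the other (1948 and 2004 CPM with EGCG against 1753 and 1848 CPM). The part of either cell type in the Slc39a10 counts was not tested.

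**Figure D3:**
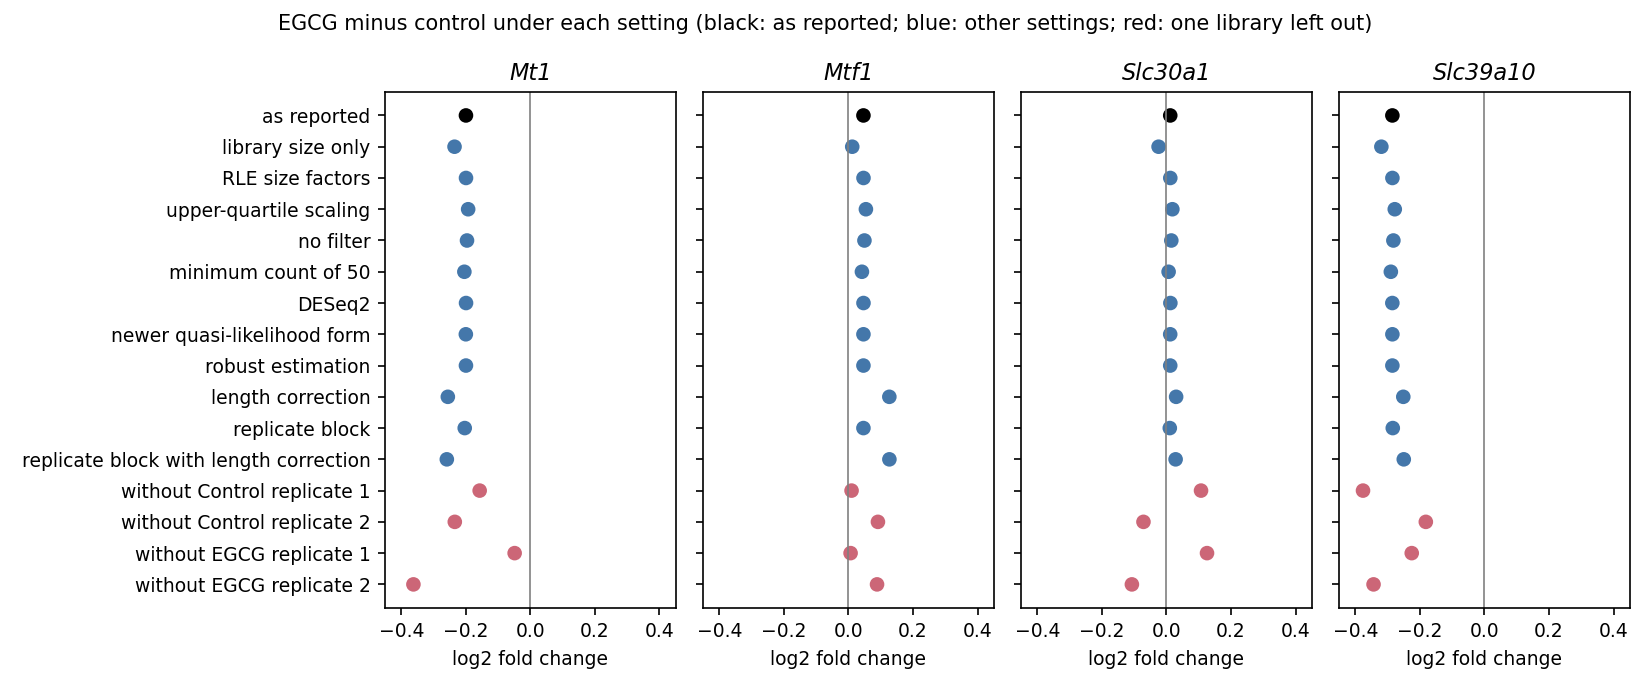
Log2 fold change, EGCG minus control, of the 4 tested genes under each setting; black points are the values as reported, blue points other settings of scaling, filter, test or correction, and red points fits with 1 library left out. Mt1 and Slc39a10 stay below 0 and Mtf1 above 0 under every setting shown, and Slc30a1 has points on both sides of 0.

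Across the 4 libraries, the tested genes whose centred log2 CPM lay nearest to that of Mt1 among 10676 genes with at least 50 counts in every library were Hmox1, St14 and Rab43 (Euclidean distance 0.0179, 0.0209 and 0.0223). Hmox1 encodes heme oxygenase 1, an enzyme of heme breakdown that is induced by oxidants and metals. Hmox1 was at 346 and 334 CPM in control and at 264 and 327 CPM with EGCG, the same order of libraries as for Mt1. The distance to Mt1 was 0.231 for Slc30a1, 0.246 for Slc39a10 and 0.387 for Mtf1. With 4 libraries, such a likeness describes these libraries only. The rule fixed for this search used the mean profile of Mt1 and Mt2; with Mt2 flat at 0 it gave Zfp84, Nt5dc3 and Plin2, and the search with Mt1 alone was chosen after the values were seen.

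The other zinc exporters are the ZnT proteins, which move zinc out of the cytosol into organelles, vesicles or the medium. Of the 10 genes of this family, 6 had enough counts to be tested, 3 higher and 3 lower with EGCG, with a median log2 fold change of -0.01 beside 0.00315 over all tested genes. By edgeR 0 were called and 0 had an unadjusted p under 0.05, against 0.15% and 12.2% of all tested genes. DESeq2 called 0 of those to which it gave an adjusted p. The log2 fold changes ran from -0.18 for Slc30a4 (standard error 0.16) to 0.11 for Slc30a6 (standard error 0.13). Slc30a4 ranged from -0.27 without control replicate 1 to -0.076 without control replicate 2, and Slc30a6 ranged from 0.024 without EGCG replicate 2 to 0.20 without EGCG replicate 1.
The zinc importers are the ZIP proteins, which bring zinc into the cytosol. Of the 14 ZIP genes, 12 were tested, and 9 of them were lower and 3 higher in the EGCG treatment group, with a median log2 fold change of -0.18. For 8 of the 12, both EGCG libraries lay below both control libraries, as for 21.2% of all tested genes in this direction. DESeq2 called 0 of the genes to which it gave an adjusted p, which Slc39a10 did not have. By edgeR's quasi-likelihood test 0 were called in either direction, and 2 were lower at an unadjusted p under 0.05, against 7.02% of all tested genes. These were Slc39a10 and Slc39a7, which encodes ZIP7, the channel that releases zinc from the endoplasmic reticulum. Slc39a7 was at 6.57 and 6.77 CPM in control and at 4.14 and 5.60 CPM with EGCG, for a log2 fold change of -0.46 (standard error 0.19; unadjusted p of 0.0348 and adjusted p of 0.376 by edgeR). Gm20427 covers 80.7% of the exonic bases of Slc39a7, so its counts are uncertain. Its log2 fold change was -0.25 without EGCG replicate 1 and -0.69 without EGCG replicate 2. The highest value among the ZIP genes with at least 10 counts in every library was 0.05 for Slc39a3 (standard error 0.11), which ran from -0.080 without control replicate 2 to 0.21 without control replicate 1. The median of the ZIP genes was -0.12 with the length correction and -0.061 without control replicate 1. All 8 macrophage, 6 endothelial and 5 platelet markers and 5 of 6 monocyte markers were also lower with EGCG. In contrast, only 3 of 11 neutrophil, 1 of 6 B cell, 2 of 6 T cell and 1 of 4 tested erythroid markers were lower. Lower were also 3 of 5 dendritic cell and 2 of 5 basophil and mast cell markers, and 1 of 2 tested NK cell markers. Summed marker levels, control against EGCG, were 120 and 132 CPM against 97.6 and 104 CPM for endothelial cells and 38.7 and 43.6 CPM against 35.4 and 34.2 CPM for platelets. Those of B cells were 1753 and 1848 CPM against 1948 and 2004 CPM. The part of other cells in the ZIP values was not tested.

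**Figure D4:**
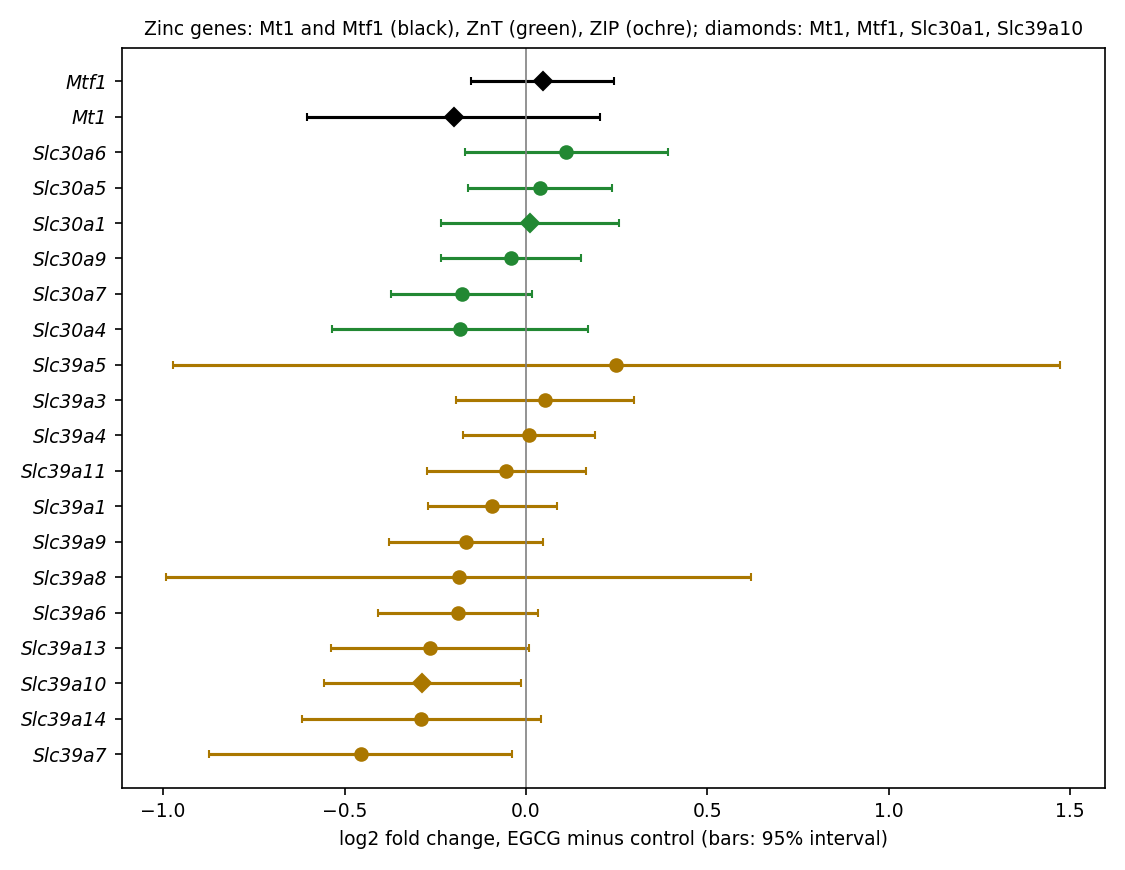
Log2 fold change, EGCG minus control, with its 95% interval from edgeR, for Mt1 and Mtf1 (black), the 6 tested ZnT genes (green) and the 12 tested ZIP genes (ochre); diamonds mark Mt1, Mtf1, Slc30a1 and Slc39a10. Most ZIP genes lie below 0, and only the intervals of Slc39a10 and Slc39a7 leave out 0, before adjustment.

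Levels of different genes were compared per kilobase of exon (RPKM). Mt1 was at 4.97 and 4.72 RPKM in control and 3.76 and 4.67 RPKM with EGCG, which overlapped Slc30a1 (4.16 to 4.89 RPKM over the 4 libraries) and Mtf1 (4.11 to 4.50 RPKM). Slc39a10 lay below these genes in every library, at 2.12 to 2.87 RPKM. The exonic bases of Mt1 (1246) include sequence that is spliced out of its principal transcript of 549 bases, and with that length Mt1 was at 8.54 to 11.3 RPKM, above the other members in every library. The highest levels among the zinc transporters were those of the importers Slc39a1 (25.2 to 28.1 RPKM) and Slc39a4 (18.3 to 19.8 RPKM), which did not overlap each other. The 3 next genes, Slc39a11, Slc39a3 and Slc39a6, overlapped one another in RPKM.

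**Figure D5:**
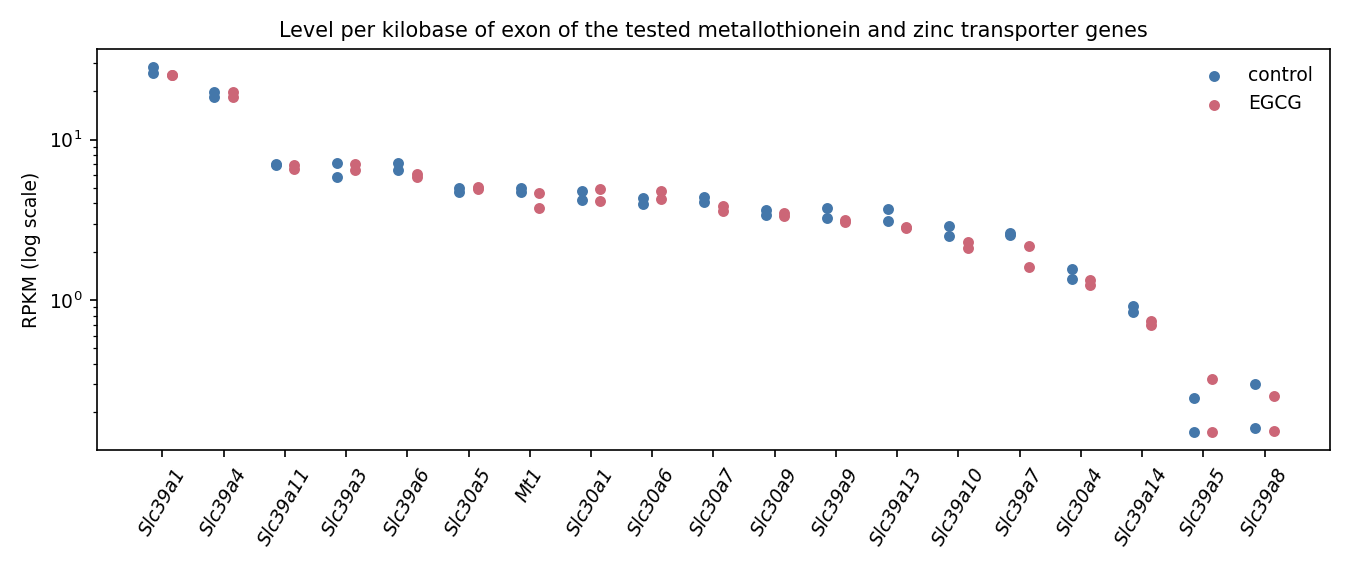
Level per kilobase of exon (RPKM, log scale) of the tested metallothionein and zinc transporter genes in the control (blue) and EGCG (red) libraries, ordered by their mean over the 4 libraries; each point is a library. Slc39a1 and Slc39a4 stand highest, and Mt1 and Slc30a1 lie side by side between 3.76 and 4.97 RPKM.

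Of 8 further genes reported to depend on MTF1, all were tested, 4 higher and 4 lower with EGCG, with a median log2 fold change of -0.01. DESeq2 called 0 of those to which it gave an adjusted p, and edgeR called 0. By edgeR, 1 was higher and 1 lower at an unadjusted p under 0.05, where 5.22% and 7.02% of all tested genes were. The higher gene, Slc40a1, encodes the iron exporter ferroportin and was at 562 and 625 CPM in control and 668 and 696 CPM with EGCG (log2 fold change of 0.20, standard error 0.08, adjusted p of 0.339 by edgeR; 0.13 without control replicate 1). The lower gene, Gclc, encodes the catalytic subunit of the first enzyme of glutathione synthesis and was at 56.1 and 47.8 CPM in control and 38.4 and 45.5 CPM with EGCG. Gclc had a log2 fold change of -0.31 (standard error 0.11, adjusted p of 0.265 by edgeR), and whether it was called depended on which library was left out. It was called without control replicate 2 (-0.42) or EGCG replicate 2 (-0.44), and it was at -0.18 without control replicate 1 and -0.19 without EGCG replicate 1, where it was not called.
The genes of the oxidant response were examined because metallothioneins are also raised by oxidants. All 11 were tested, 8 lower and 3 higher, with a median of -0.09 and 0 called by edgeR and by DESeq2. At an unadjusted p under 0.05, 4 of the 11 were lower, against 7.02% of all tested genes. Besides Gclc these were Slc7a11, the cystine importer (log2 fold change of -0.27, adjusted p of 0.162 by edgeR), Hmox1 (-0.20, adjusted p of 0.405) and Txnrd1, a thioredoxin reductase (-0.19, adjusted p of 0.403). Hmox1 was called without EGCG replicate 2 (log2 fold change of -0.36) and was at -0.05 without EGCG replicate 1. Leaving out a library put Txnrd1 at -0.080 (EGCG replicate 1), -0.11 (control replicate 1) or -0.30 (EGCG replicate 2). Slc7a11 was at 224 and 217 CPM in control and at 178 and 187 CPM with EGCG. Its log2 fold change lay between -0.31 and -0.24 with a library left out and was -0.14 under the alternative nearest to 0. The summed macrophage markers were lower as well (306 and 326 CPM with EGCG against 394 and 390 CPM). The summed B cell markers were higher (1948 and 2004 CPM against 1753 and 1848 CPM). The part of either cell type in the values of this list was not tested. The highest value in this list was 0.08 for Gclm (standard error 0.07), the regulatory partner of Gclc.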

How the data were processed

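RNA from 2 control and 2 EGCG libraries was measured. The authors used STAR 2.6.0c (GRCm38) and featureCounts 1.6.2 with Ensembl annotation, ignored strand, and deposited raw counts. The table held 0 columns of other samples and 0 lines without a gene. Groups came from the labels.

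Genes were filtered with filterByExpr (minimum count of 10) and tested in edgeR 4.0.16 (legacy quasi-likelihood form, TMM, no block), as the study's methods name that test. CPM use the TMM-scaled totals, and RPKM divide them by exonic length from GENCODE M21, which held 53360 of the 53465 identifiers. The 31-base words of Mt1 occurred in no other gene's transcripts (0%). The shared part was 2.34% for Slc39a10, 7.77% for Mtf1, 8.38% for Slc30a1 and 58.1% for Mt2 (with Gm45774 and Pip5k1a). Between replicates a chi-square of counts averaged 6.85 (control) and 6.64 (EGCG) per gene, above sampling noise. The members and lists were chosen with earlier results of these data known. In the text, fold changes were given by name for the tested members. Of each list, they were given for genes with an unadjusted p under 0.05. They were also given for the highest and lowest value among genes with at least 10 counts in every library. Other genes were named for their counts, their levels or their likeness to the metallothionein profile. The test and the length correction (loess of log counts on log length, span of 0.4, as an offset) were first tested on simulated data. Alternatives were other scalings, filters (none, and a minimum of 50), DESeq2 1.42.0, newer and robust fits, the length correction, a replicate block and leaving out each library. Intervals are at 95% and cover counting error where named Poisson. R 4.3.3, Python 3.11.15 and matplotlib 3.10.9 were used.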

Additional observations from a re-analysis of the deposited data

How the results depend on the processing

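No call of a member was made under any of the 11 alternatives or with a library left out, and DESeq2 gave no adjusted p for Mt1 and Slc39a10. Mt1 kept a log2 fold change from -0.26 to -0.19 under these alternatives (-0.36 to -0.05 with a library left out), Slc39a10 from -0.32 to -0.25 (-0.38 to -0.18), and Mtf1 from 0.01 to 0.13 (0.0068 to 0.09). Slc30a1 was at -0.024 with library size only, a setting that moved the median of all tested genes from 0.00315 to -0.032, and lay between -0.11 and 0.13 with a library left out. The median of the ZnT genes was -0.050 when scaled by library size only and 0.054 with the length correction, with or without the block, and lay between -0.089 and 0.091 with a library left out. With a library left out, the median ran from -0.12 to 0.041 for the MTF1 list and from -0.090 to 0.0098 for the glucocorticoid list. The other ranges were -0.22 to -0.061 for the ZIP genes, -0.19 to -0.050 for the oxidant response and -0.022 to 0.083 for copper handling, whose median was -0.029 with the length correction, with or without the block. In fits with a library left out, where 1 group has 1 library that is assumed to vary like the other group, 0 or 1 genes of the MTF1 list, 0 or 1 of copper handling and 0 to 2 of the oxidant response were called lower, and 1 copper gene was called lower with library size only.

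Over all tested genes, 2 were called higher and 20 lower. The counts were 16 and 135 with library size only, 0 and 0 without a filter, 1 and 9 with a minimum count of 50, 14 and 54 with DESeq2, 6 and 25 with the newer fit, and 14 and 49 with the robust fit. With upper-quartile scaling 9 were lower, and with the length correction 6. Leaving out a library gave 5 to 119 higher and 72 to 235 lower genes. The replicate numbers pair no libraries by their labels, and the deviations of same-numbered libraries had a correlation of 0.0336 over genes. The replicate block gave 6 higher and 24 lower genes, and 2 and 5 together with the length correction, and it changed no call of a member. The causes were not tested. The scaling moved the median of all tested genes by less than 0.1, from -0.03 to 0.01. Fold changes fell with exonic length (Spearman correlation of -0.286 over 14666 genes, which are not independent replicates), which bears on the short Mt1. About 100 counts of Mt1 per library limit its precision.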

Other observations

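Copper shares metallothioneins with zinc, and genes of copper handling were examined in the same fit. Of 13 genes, 11 were tested, 7 higher and 4 lower with EGCG, with a median log2 fold change of 0.04. DESeq2 called 0 of those to which it gave an adjusted p. By edgeR 0 were called, and 1 was lower at an unadjusted p under 0.05, where 7.02% of all tested genes were. This gene, Atp7a (ENSMUSG00000033792), encodes the copper-exporting ATPase that also loads secreted enzymes with copper. Atp7a was at 43.6 and 39.9 CPM in the control libraries and at 32.2 and 29.7 CPM in the EGCG libraries. Both EGCG libraries lay below both control libraries, and the log2 fold change was -0.43 (standard error 0.10; adjusted p of 0.0902 by edgeR's quasi-likelihood test, from 0.0243 to 0.602 over the alternatives). With all libraries, Atp7a was called with library size only (log2 fold change of -0.47). It was also called without control replicate 2 (-0.50) or EGCG replicate 1 (-0.49), fits that rest on 1 library in a group. It was not called without control replicate 1 (-0.36) or EGCG replicate 2 (-0.38). The lowest value was -0.82 for Cp (standard error 0.39), the gene of ceruloplasmin, with 25 and 23 counts in control and 12 and 15 with EGCG, and the highest was 0.28 for Sco1 (standard error 0.20; 0.15 without EGCG replicate 2 and 0.17 without control replicate 2), a copper chaperone of mitochondria.

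Glucocorticoids are a further inducer of metallothioneins. Of 8 genes of the glucocorticoid response, all tested, 2 were higher and 6 lower, with a median of -0.03. DESeq2 called 0 of those to which it gave an adjusted p. By edgeR 0 were called and 0 had an unadjusted p under 0.05, against 0.15% and 12.2% of all tested genes. The values ran from -0.28 for Zbtb16 (standard error 0.28; -0.012 without EGCG replicate 1 and -0.60 without EGCG replicate 2) to 0.16 for Tsc22d3 (standard error 0.08), which encodes the leucine zipper protein GILZ.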
